A study of Rattus norvegicus with 6 samples.

Results

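The integrated stress response (ISR) transcription factors examined here were Atf4, Ddit3 (CHOP), Atf3, Atf5, Cebpb, Cebpg and Nupr1. They were chosen by name, and each had to be measured by at least 1 probeset assigned to that symbol alone. All 7 were present among the 12603 genes of the arrays, on 8 of 17978 probesets (2 probesets for Cebpg and 1 for each of the others), and the probesets of a gene were averaged. The cells were INS-1, which derive from a rat insulinoma and stand in for β-cells of the pancreas. A single clone was used, in which doxycycline (Dox) switches on a GFP fusion of insulin 2 bearing the C96Y mutation of the Akita mouse. The 3 groups were cells given Dox (2 μg/ml) with 4μ8c (5 μM), cells given Dox alone and untreated cells. All were collected at 48 h, with 1 array per group in each of 2 independent experiments (6 arrays). The compound 4μ8c inhibits the endoribonuclease activity of IRE1, and the comparisons ask how mutant proinsulin and IRE1 activity bear on mRNA levels. All cells, the untreated ones included, carried the switchable mutant gene and no line without it was compared, so that effects of doxycycline itself and of mutant proinsulin cannot be told apart, and the effect of 4μ8c in the absence of Dox was not analysed here.

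In the ISR, kinases such as PERK, which senses unfolded proteins in the endoplasmic reticulum (ER), phosphorylate eIF2α. This lowers general translation and favours translation of the Atf4 mRNA. ATF4 is a basic leucine zipper (bZIP) activator that raises transcription of other stress regulators, including CHOP and ATF3, and of genes for amino acid supply. C/EBPβ and C/EBPγ are bZIP proteins that can pair with ATF4, and in the β-cell prolonged CHOP expression has been linked to apoptosis under ER stress. Because ATF4 is controlled largely at translation, its mRNA level does not show the amount of its protein.

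The deposited values are log2 signals with each probeset centred inside its experiment. They therefore show differences between arrays of the same experiment and no absolute level, so that the factors cannot be ranked by abundance, and the presence of β-cell markers could not be checked as a level. Of 8 β-cell markers, Mafa fell with Dox (log2 change -0.56, adjusted p = 0.0090) and so did Iapp (-0.25, adjusted p = 0.041). At an unadjusted p under 0.05, 5 of the 8 were lower with Dox, also Neurod1 (-0.24), Slc2a2 (-0.17) and Ins2 (-0.13). Pdx1 at -0.09, Ins1 at -0.03 and Nkx6-1 at 0.09 did not pass at either level. Over all genes 2.01% were called lower with Dox, and 2476 of 12603 had an unadjusted p under 0.05 in either direction. With Dox+4μ8c 1943 did so against untreated, and 0.175% were called higher against Dox. With Dox+4μ8c none of the 8 passed against untreated by limma (1 higher and 1 lower at an unadjusted p under 0.05), and 1 rose against Dox (Mafa, by 0.62). With either Dox+4μ8c array omitted, the calls between Dox+4μ8c and Dox were lost over all genes, that of Mafa among them. The 2 that fell with Dox became 0 without untreated replicate 1 and 1 without any one of the Dox+4μ8c arrays, untreated replicate 2 or Dox replicate 2. Of 3 markers of other islet cells, Gcg fell in both comparisons with untreated cells (-1.36 with Dox+4μ8c and -2.22 with Dox) and rose with Dox+4μ8c against Dox (0.86, adjusted p = 0.021). Ppy was slightly higher with Dox+4μ8c (0.15, unadjusted p = 0.023 by limma) and with Dox (0.13, unadjusted p = 0.040) and did not pass. Ghrl was at 0.03 and 0.05 and did not pass either, with tied values in experiment 1. Without a term for the experiment none of the 3 calls of Gcg passed (adjusted p = 0.21, 0.054 and 0.52) and Iapp did not either (0.052). The rise of Gcg was lost without either Dox+4μ8c array, and its fall with Dox+4μ8c without replicate 1 of that group. In such bulk RNA, fewer cells of a type and less RNA per cell cannot be told apart, and the part of these markers in the results on the ISR factors was not tested. The Dox array of experiment 2 had the widest values, with an SD of 0.18 over all probesets against 0.05 to 0.12 on the other 5 arrays. In experiment 1, 25.5% of probesets had equal values on all 3 arrays and 31.7% on 2 of them, against 0.63% with any tie in experiment 2. None of the 8 probesets of the ISR factors had a tie. The gap between 5′ and 3′ probesets of 4 spiked-in poly-A RNAs differed from the untreated array of the same experiment by a median of 0.10 and -0.26 with Dox+4μ8c and by -0.16 and -0.65 with Dox (experiments 1 and 2, log2), and its part in the results was not tested.

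All 7 ISR factors were higher than in untreated cells both with Dox+4μ8c and with Dox. With Dox+4μ8c the rise was 2.39 fold for Atf5, 2.30 fold for Ddit3, 1.84 fold for Atf3, 1.77 fold for Atf4, 1.66 fold for Nupr1, 1.48 fold for Cebpg and 1.40 fold for Cebpb. The rise with Dox was 2.30 fold for Ddit3, 2.23 fold for Atf5, 2.19 fold for Nupr1, 2.02 fold for Atf3 and 1.98 fold for Atf4. It was smaller for the C/EBP genes, at 1.48 fold for Cebpg and 1.38 fold for Cebpb. Between Dox+4μ8c and Dox, Ddit3, Cebpg and Cebpb differed by less than 0.04 on the log2 scale, Atf5 had a slightly higher value, and Atf3, Atf4 and above all Nupr1 had lower values, none of which passed the test.

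**Figure D1:**
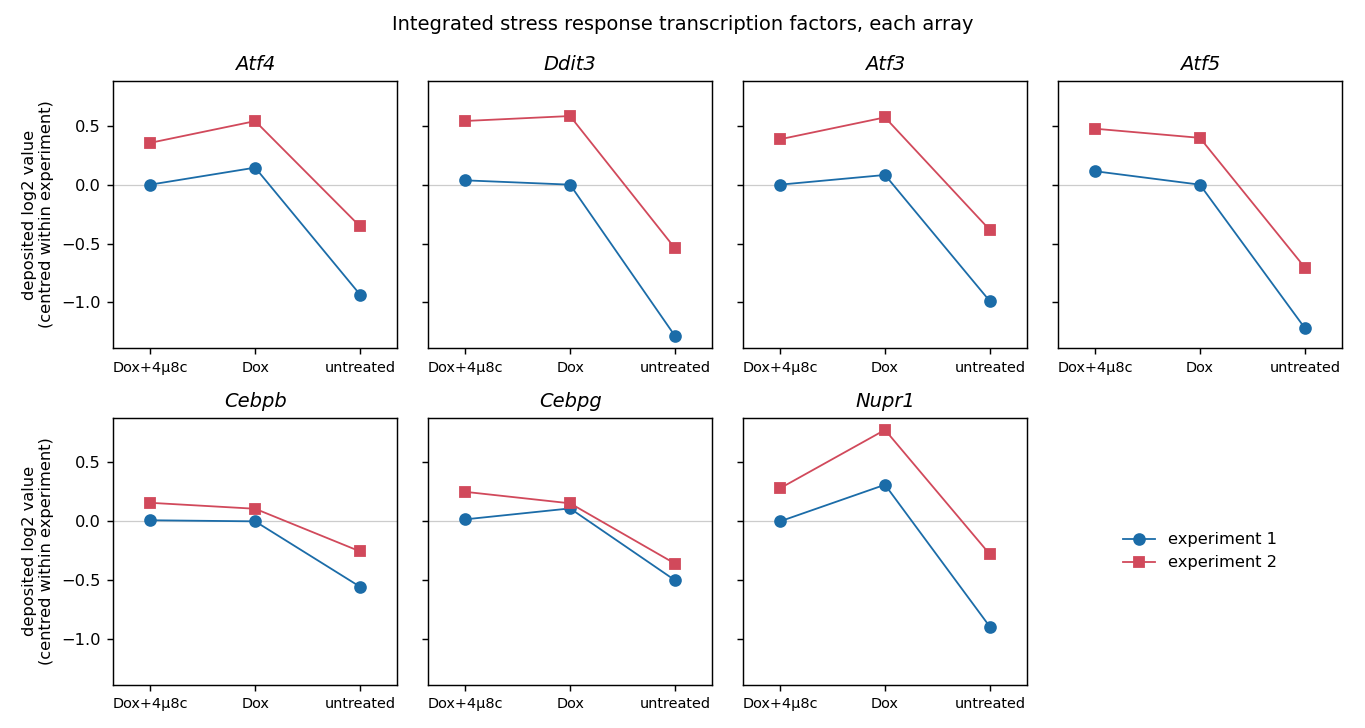
Deposited log2 value (y axis, centred within an experiment) of each of the 7 ISR factors on the 6 arrays, with the groups Dox+4μ8c, Dox and untreated on the x axis, circles for experiment 1 and squares for experiment 2. In both experiments the untreated array is the lowest for every factor, and Nupr1 shows the largest step between Dox+4μ8c and Dox (-0.31 and -0.50).

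Atf4, which encodes the central activator of the response, had values of 0 and 0.36 with Dox+4μ8c, 0.14 and 0.54 with Dox, and -0.93 and -0.36 in untreated cells (experiments 1 and 2). In each experiment the untreated array was the lowest, and the Dox array lay slightly above the Dox+4μ8c array. The log2 change with Dox+4μ8c was 0.93 and 0.71 in experiments 1 and 2, with a mean of 0.82 (SE 0.07, adjusted p = 0.0065 by limma). With Dox it was 1.08 and 0.89, with a mean of 0.99 (SE 0.07, adjusted p = 0.0016). The difference between Dox+4μ8c and Dox was -0.16 (95% interval -0.32 to -0.01), which had an unadjusted p of 0.045 and did not pass after adjustment over all genes (adjusted p = 0.43).

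Ddit3 encodes CHOP, a bZIP factor that acts downstream of ATF4 and is linked to cell death under ER stress. Its values were 0.04 and 0.54 with Dox+4μ8c, 0 and 0.58 with Dox, and -1.29 and -0.54 in untreated cells. The Dox+4μ8c and Dox arrays were nearly level in both experiments, and the untreated arrays lay at least 1.08 below them. The log2 change with Dox+4μ8c was 1.20 (SE 0.07, adjusted p = 0.0023). With Dox it was also 1.20 on the arrays (SE 0.07, adjusted p = 0.0010), the largest of the 7 and at rank 16 among 12603 genes. By quantitative PCR, however, the paper reports no significant effect of mutant proinsulin on CHOP mRNA in these cells. Why the array and PCR results differ was not tested. The difference between Dox+4μ8c and Dox was -0.003 (95% interval -0.16 to 0.16, adjusted p = 0.99), or 0.89 to 1.12 fold.

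Atf3, a bZIP factor of the ATF/CREB family that is induced by many stresses and mostly acts as a repressor, had values of 0 and 0.39 with Dox+4μ8c, 0.08 and 0.57 with Dox, and -0.99 and -0.39 in untreated cells. Its pattern followed that of Atf4, with the Dox array highest and the untreated array lowest in each experiment. The log2 change was 0.88 with Dox+4μ8c (SE 0.06, adjusted p = 0.0057) and 1.01 with Dox (SE 0.06, adjusted p = 0.0012). The difference between Dox+4μ8c and Dox was -0.13 (95% interval -0.29 to 0.02, adjusted p = 0.51).

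Atf5, whose translation, like that of Atf4, is favoured when eIF2α is phosphorylated, had values of 0.11 and 0.48 with Dox+4μ8c, 0 and 0.40 with Dox, and -1.22 and -0.70 in untreated cells. The Dox+4μ8c array was the highest in both experiments, by 0.11 and 0.08. The log2 change with Dox+4μ8c was 1.26 (SE 0.06, adjusted p = 0.00079), which placed it at rank 10 among all genes, and with Dox 1.16 (SE 0.06, adjusted p = 0.00072), at rank 20. The difference of 0.10 between Dox+4μ8c and Dox did not pass (95% interval -0.04 to 0.23, adjusted p = 0.59).

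Cebpb, which encodes the activator C/EBPβ and its shorter inhibitory form, had values of 0.01 and 0.16 with Dox+4μ8c, 0 and 0.11 with Dox, and -0.56 and -0.26 in untreated cells. Both treated arrays stood above the untreated array in each experiment, by 0.36 to 0.56, and Dox+4μ8c was above Dox by 0.01 and 0.05. The log2 change was 0.49 with Dox+4μ8c (SE 0.06, adjusted p = 0.020) and 0.46 with Dox (SE 0.06, adjusted p = 0.010), with a difference of 0.03 between them (95% interval -0.12 to 0.18, adjusted p = 0.88).

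Cebpg encodes C/EBPγ, a small bZIP protein that lacks an activation domain of its own and works as a dimer partner. Its values were 0.02 and 0.25 with Dox+4μ8c, 0.11 and 0.15 with Dox, and -0.50 and -0.36 in untreated cells. The 2 treated arrays changed places between the experiments, since the Dox+4μ8c array was the lower one in experiment 1 and the higher one in experiment 2. The log2 change was 0.56 with Dox+4μ8c (SE 0.06, adjusted p = 0.012) and 0.56 with Dox (SE 0.06, adjusted p = 0.0052). The difference was 0.002 (95% interval -0.14 to 0.15, adjusted p = 0.99). The 2 probesets of Cebpg gave changes of 0.60 and 0.62 with Dox in experiment 1 and of 0.53 and 0.50 in experiment 2. With Dox+4μ8c they were 0.38 and 0.66 in experiment 1, where the probesets agreed less well, and 0.60 and 0.62 in experiment 2.

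Nupr1 encodes a small stress-induced nuclear protein, not a bZIP factor, that works with other transcription regulators. Its values were 0 and 0.28 with Dox+4μ8c, 0.31 and 0.78 with Dox, and -0.90 and -0.28 in untreated cells. In both experiments the Dox+4μ8c array lay between the Dox and the untreated array, as for Atf4 and Atf3 but with a larger step to Dox. The log2 change was 0.73 with Dox+4μ8c (SE 0.08, adjusted p = 0.015) and 1.13 with Dox (SE 0.08, adjusted p = 0.0018). The difference between Dox+4μ8c and Dox was -0.31 and -0.50 in experiments 1 and 2, with a mean of -0.40 (SE 0.08, 95% interval -0.60 to -0.21), or 0.76 fold. This had an unadjusted p of 0.0022 and an adjusted p of 0.084 over all genes. It was below the threshold without the Dox array of experiment 1 (adjusted p = 0.048), and also when only the 4896 genes free of ties in experiment 1 were tested (adjusted p = 0.032), a set chosen after the ties had been seen. Over all alternatives the adjusted p ran from 0.032 to 0.76. Whether the effect of 4μ8c differed between Nupr1 and the other factors was not tested.

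RefSeq promoter sequences (250 bases before to 50 after the gene start, rat build GRCr8) were held for 6 of the 7 genes, all but Atf3. They were searched on both strands for TGATGNAA, a core of the C/EBP-ATF response element that ATF4 and C/EBP dimers bind, for TGACGTCA, the cAMP response element, and for TGACGTGG, a core of the unfolded protein response element bound by XBP1 and ATF6. The first was found in 1 of the 6 promoters, that of Nupr1, and in 3.98% of all 33469 promoters of the same length. The other 2 were in none of the 6 (1.83% and 0.595% of all promoters). The Nupr1 stretch is shown because this gene had both a match and the largest step with 4μ8c. It is chr1:190645909-190645996 on the minus strand, and its capitals mark the match, which reads as the reverse complement of the motif and lies 55 to 48 bases before the gene start.
Nupr1: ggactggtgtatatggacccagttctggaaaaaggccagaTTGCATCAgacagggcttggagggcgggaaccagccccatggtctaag
A match describes the letters of the window only, and sites outside it were not searched.

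All 7 factors passed the test of Dox+4μ8c against untreated, where limma called 1.17% of all genes higher. All 7 also passed for Dox against untreated, where 4.42% of genes were called higher. A rise of at least 1.5 fold was seen for 5 of the 7 with Dox+4μ8c, against 0.302% of all genes, and for the same 5 with Dox, against 0.968%. The median log2 change of the 7 was 0.82 with Dox+4μ8c and 1.01 with Dox, while the medians over all genes were 0.00 and 0.01. Between the experiments the changes had the same sign for all 7 in both comparisons with untreated cells. With Dox all 7 were larger in experiment 1 (0.56 to 1.29) than in experiment 2 (0.36 to 1.12). These calls came from a fit with the experiment as a term. In a fit without this term, where the offsets left by the centring count as spread, 0 of the 7 passed with Dox+4μ8c (adjusted p from 0.088 to 0.22, all 7 at an unadjusted p under 0.05) and 1 with Dox (Cebpg, adjusted p = 0.038, and 0.051 to 0.093 for the others). In that fit 0 of all 12603 genes passed with Dox+4μ8c and 440 with Dox, so that 0 of 7 does not set the factors apart. Over all genes the calls with Dox+4μ8c also fell without an untreated or a Dox+4μ8c array, and rose without a Dox array. Without untreated replicate 1, Cebpb no longer passed with Dox (adjusted p = 0.066), and 4 of 7 passed with Dox+4μ8c (not Cebpb, Cebpg and Nupr1). That number was 6 without untreated replicate 2 (not Cebpg), 2 without Dox+4μ8c replicate 1 (Ddit3 and Atf5) and 3 without Dox+4μ8c replicate 2 (Ddit3, Atf5 and Atf3), and 7 with either Dox array left out.

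**Figure D2:**
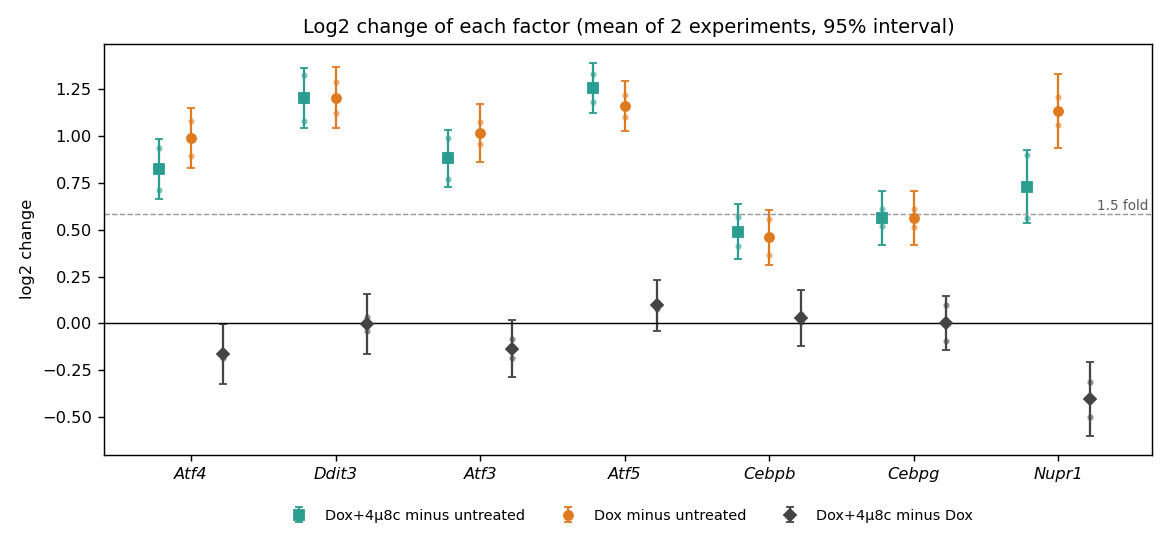
Log2 change (y axis) of each ISR factor for Dox+4μ8c minus untreated (squares), Dox minus untreated (circles) and Dox+4μ8c minus Dox (diamonds). Large symbols are means of 2 experiments with 95% intervals from limma, small dots are the experiments, and the dashed line is 1.5 fold. All intervals against untreated lie above 0, and of the differences between Dox+4μ8c and Dox that of Nupr1 (-0.40) is the farthest from 0.

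In the direct comparison of Dox+4μ8c with Dox, 0 of the 7 factors passed by limma, and 2 had an unadjusted p under 0.05 (Atf4 and Nupr1, both lower). Over all genes 1.61% were called lower and 0.175% higher after adjustment, and 1415 of 12603 had an unadjusted p under 0.05 in either direction. The values of 3 factors were lower with Dox+4μ8c in both experiments (Atf4, Atf3 and Nupr1), those of 2 were higher in both (Atf5 and Cebpb), and Ddit3 and Cebpg differed in sign. The share of the log2 rise kept with 4μ8c was 64.4% for Nupr1, 83.3% for Atf4, 86.8% for Atf3, 99.8% for Ddit3, 100.4% for Cebpg, 106% for Cebpb and 108% for Atf5. The median of the 7 was 99.8%, compared with 55.4% for the 122 genes induced at least 1.5 fold by Dox, whose quartiles were 24.2% and 77.4%. Both changes share the untreated arrays, and the 122 genes were selected on the same Dox arrays. The sets also differ, since Cebpb and Cebpg rose less than 1.5 fold with Dox and are not among the 122. Of the 5 factors that are, Atf3 (86.8%) lay in the middle, within 64.4% to 108%. The medians are therefore given as a description. The unadjusted 95% intervals of the difference spanned 0.13 to 0.20 to either side of the factors' values, and the adjustment over all genes asks for more than an interval that leaves out 0, as the values of Nupr1 and Atf4 show.

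**Figure D3:**
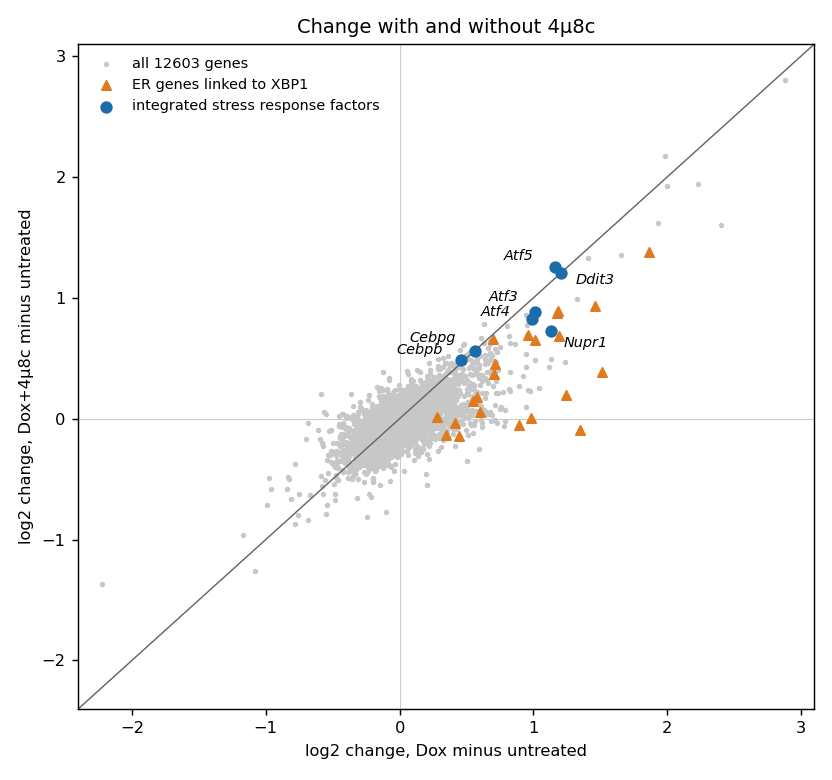
Log2 change against untreated with Dox+4μ8c (y axis) and with Dox (x axis) of all 12603 genes (grey), 22 ER genes linked to XBP1 (triangles) and the 7 ISR factors (circles, named). The factors lie close to the diagonal of equal change, with Nupr1 at 0.73 and 1.13, and most triangles lie below it.

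Among the kinases and regulators that act before these factors, the mRNA of PERK fell when 4μ8c was added to Dox. Of 15 genes of eIF2α phosphorylation and exchange, 1 rose with Dox+4μ8c against untreated, 4 rose with Dox (Eif2ak3, Dnajc3, Eif2b3 and Eif2s2) and none fell, where 1.17% and 4.42% of all genes were called higher and 1.13% and 2.01% lower (1 of the 15 was lower with Dox+4μ8c and none with Dox at an unadjusted p under 0.05). Eif2ak3, which encodes PERK, had a log2 change of 0.08 with Dox+4μ8c (adjusted p = 0.67) and 0.75 with Dox (SE 0.07, adjusted p = 0.0043). The difference between the 2 treated groups was -0.66 and -0.69 in the experiments, with a mean of -0.67 (SE 0.07, adjusted p = 0.018). Dnajc3, whose product p58IPK restrains PERK and also serves as an ER co-chaperone, was at 0.69 with Dox+4μ8c and 1.19 with Dox, a difference of -0.51 (adjusted p = 0.032). Between the 2 treated groups 1.61% of all genes were called lower. The mRNAs of the other eIF2α kinases, Eif2ak1, Eif2ak2 and Eif2ak4, had log2 changes between -0.02 and 0.06 in both comparisons with untreated cells. None passed. In experiment 1 the values of Eif2ak2 and Eif2ak4 were tied, with changes of 0, so that their means rest on experiment 2 alone. Only 6 of the 15 genes had no tie in experiment 1. Ppp1r15a (GADD34), the stress-induced subunit of the eIF2α phosphatase and a target of the branch, was at 0.21 with Dox+4μ8c (adjusted p = 0.44) and 0.45 with Dox (adjusted p = 0.068). Without the experiment term 0 and 2 of the 15 rose with Dox+4μ8c and Dox, where 0 and 440 of all genes passed in either direction. The 4 became 2 when either untreated array was left out, while the number with Dox+4μ8c was 3 when a Dox array was left out, 1 for untreated replicate 2 and 0 for each of the other 3 arrays. The difference of Eif2ak3 passed without the experiment term (adjusted p = 0.033) and that of Dnajc3 did not (0.47). With either Dox+4μ8c array left out, the calls between Dox+4μ8c and Dox were lost over all genes, those of Eif2ak3 and Dnajc3 among them.

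Most genes known as targets of ATF4 and CHOP rose both with Dox+4μ8c and with Dox. Of 38 measured, 24 rose with Dox+4μ8c and 27 with Dox, where 1.17% and 4.42% of all genes were called higher. None of the 38 fell (none at an unadjusted p under 0.05 either). The median log2 change of the 38 was 0.43 with Dox+4μ8c and 0.56 with Dox. The largest were those of Trib3, a pseudokinase that restrains ATF4 activity, at 2.80 with Dox+4μ8c and 2.88 with Dox, of Chac1, which degrades glutathione, at 1.94 and 2.23, and of the cystine transporter gene Slc7a11 at 1.60 and 2.40. On the arrays Trib3 differed by -0.08 between Dox+4μ8c and Dox (adjusted p = 0.76 by limma). By quantitative PCR, however, the paper reports that the inhibitor reduced Trib3. Why the array and PCR results differ was not tested. Between Dox+4μ8c and Dox the median was -0.09, and 1 of the 38 passed, where 1.61% of all genes were called lower. The gene that passed was Gdf15, a secreted stress hormone, at -0.48 (SE 0.06, adjusted p = 0.024). It was at -0.02 against untreated with Dox+4μ8c and 0.46 with Dox. At an unadjusted p under 0.05, 13 of the 38 were lower and none higher, where 1415 of all 12603 genes differed in either direction. Without the experiment term 3 of the 38 were lower at that level. Asns, a classical ATF4 target, was at 0.49 with Dox+4μ8c and 0.51 with Dox. The list was written with earlier results of these arrays known, so that its direction is no independent evidence. Without the experiment term 0 and 6 of the 38 rose with Dox+4μ8c and Dox (30 and 31 at an unadjusted p under 0.05), where 0 and 440 of all genes passed in either direction. The number that rose with Dox+4μ8c also fell when an untreated or a Dox+4μ8c array was left out, as did the calls over all genes. With either Dox+4μ8c array left out, the calls between Dox+4μ8c and Dox were lost over all genes, that of Gdf15 among them.

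Of 34 other bZIP genes that could pair or compete with these factors, 2 rose with Dox+4μ8c against untreated, where 1.17% of all genes were called higher. With Dox 5 rose, where 4.42% were called higher, and 1 fell, where 2.01% were called lower. Creb3l1, an ER-anchored factor cleaved under stress, was at 0.53 with Dox+4μ8c (adjusted p = 0.018) and 0.69 with Dox (adjusted p = 0.0034). Xbp1 itself was at 0.41 (adjusted p = 0.033) and 0.30 (adjusted p = 0.046), where the arrays do not separate its spliced from its unspliced form. Jun, an AP-1 subunit, was at 0.04 with Dox+4μ8c (adjusted p = 0.79) and 0.46 with Dox (adjusted p = 0.0063), and the difference of -0.43 passed (adjusted p = 0.022). Atf6b was also lower with Dox+4μ8c than with Dox, by -0.40 (adjusted p = 0.036), where 1.61% of all genes were called lower. The fall was that of Crem, at -0.45 with Dox (adjusted p = 0.010). Cebpa was at 0.24 with Dox+4μ8c (adjusted p = 0.067) and 0.25 with Dox (adjusted p = 0.032), and Cebpd was at -0.18 in both, which did not pass. The medians of the 34 were 0.03 and 0.06, and 13 of the 34 had no tie in experiment 1. Without the experiment term 0 and 1 rose with Dox+4μ8c and Dox, where 0 and 440 of all genes passed in either direction. Jun and Crem still passed with Dox in that fit, and so did the differences of Jun and Atf6b. With either Dox+4μ8c array left out, the calls between Dox+4μ8c and Dox were lost over all genes, both differences among them. The number that rose with Dox fell without an untreated array, as did the calls over all genes. The number that rose with Dox+4μ8c fell without an untreated or a Dox+4μ8c array and grew without a Dox array, as did the calls over all genes. Crem did not pass without untreated replicate 2.

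ER genes commonly linked to XBP1 are given beside the factors because XBP1 mRNA is the substrate whose splicing 4μ8c prevents. Of 22 such genes, Dnajc3 among them, 10 rose with Dox+4μ8c (median 0.29) and 22 with Dox (median 0.93). Over all genes 1.17% and 4.42% were called higher. The list also holds genes that ATF6 can drive, such as the chaperone gene Hspa5 (0.66 with Dox+4μ8c and 0.70 with Dox), which is not thought to need XBP1. The largest rises with Dox+4μ8c were those of Sdf2l1, an ER chaperone cofactor gene, at 1.38 with Dox+4μ8c and 1.86 with Dox, of Creld2 at 0.94 and 1.46 and of the disulfide isomerase gene Pdia4 at 0.89 and 1.19. Between Dox+4μ8c and Dox, 13 of the 22 fell and none rose, where 1.61% of all genes were called lower. The median of the 22 was -0.47, compared with -0.003 for the 7 ISR factors and -0.01 for all genes. The largest falls were those of Bhlha15, a transcription factor of secretory cells, at -1.44 (adjusted p = 0.013), of the ER isomerase gene Fkbp11 at -1.13 (adjusted p = 0.010) and of the co-chaperone gene Dnajb9 at -1.05 (adjusted p = 0.013). Nupr1, at -0.40, was lower than the other ISR factors and within the range of this list. That range ran from -1.44 to -0.04 (Hspa5), the next value being -0.26 (Pdia6). The ATF4 and CHOP targets, with a median of -0.09, also spanned the value of Nupr1, as Slc7a11 was at -0.80 and Gdf15 at -0.48. The value of Nupr1 therefore does not place it with either list. The difference between the ISR factors and the ER genes was not tested. Without the experiment term 0 and 12 rose with Dox+4μ8c and Dox (10 and 22 at an unadjusted p under 0.05), and 8 fell between Dox+4μ8c and Dox. In that fit 0, 440 and 143 of all genes passed in these comparisons, in either direction. With either Dox+4μ8c array left out, the calls between Dox+4μ8c and Dox were lost over all genes, so that the list cannot be judged there. The number that rose with Dox+4μ8c fell without an untreated or a Dox+4μ8c array, as did the calls over all genes.

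**Figure D4:**
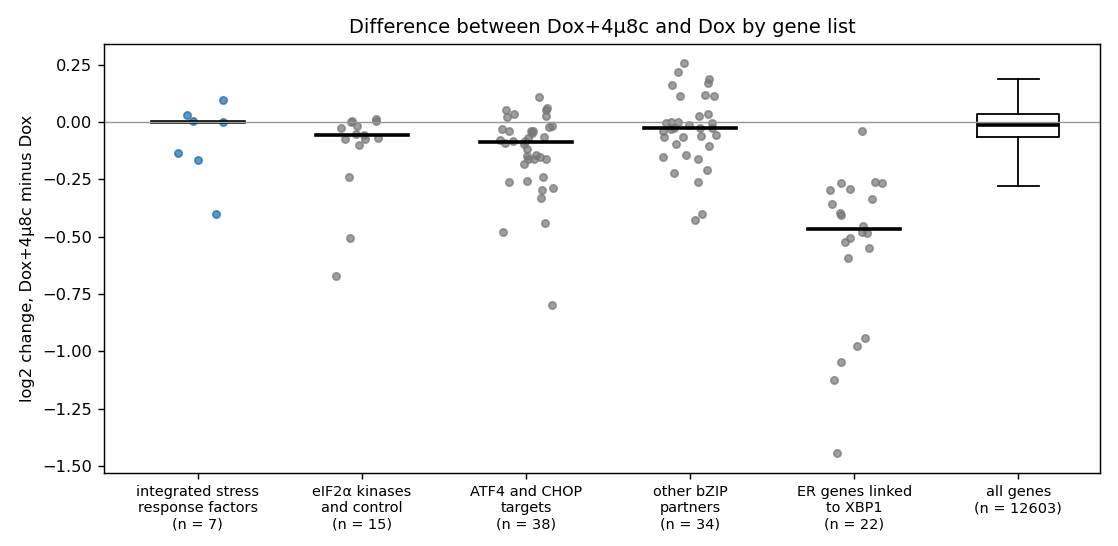
Log2 change between Dox+4μ8c and Dox (y axis) of the 7 ISR factors and of 4 lists of related genes, each point a gene and each bar a median. The box at the right covers all 12603 genes (quartiles, with whiskers over the central 95%). The factors have a median of -0.003 and the ER genes linked to XBP1 one of -0.47.

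By the likeness of their changes, 4 of the 7 factors formed pairs of mutual nearest genes. The nearest genes of Cebpb, Cebpg and Nupr1 were not among the 7, and whether those pairs were mutual was not determined. Likeness was measured as the distance between genes over the 4 log2 changes against untreated (Dox+4μ8c and Dox in each experiment), which share the 2 untreated arrays, and is a description only. Atf3 was the nearest of all genes to Atf4, and Atf4 to Atf3 (distance 0.10), with Xpot, which exports tRNA from the nucleus, next for both (0.11). The third places were held by Nars1, an aminoacyl-tRNA synthetase gene, for Atf4 (0.20) and by Mthfd2 of mitochondrial folate metabolism for Atf3 (0.17). Ddit3 and Atf5 were likewise nearest to each other (0.12), and the next gene for both was Psat1 of serine synthesis, at 0.35 and 0.39, followed by the neutral amino acid transporter gene Slc1a4, at 0.36 and 0.46. For Cebpb the nearest were Lrrc8d, a subunit of volume-regulated anion channels (0.07), and then Asns (0.09) and Cars1 (0.15). For Cebpg they were Mdfic (0.12), Cdh10 (0.17) and Pigy (0.17). For Nupr1 the nearest were not ISR factors but the ER genes Dnajc3 (0.11) and Manf (0.22), followed by Atf4 (0.26). Dnajc3 had log2 changes of 0.83 and 0.54 with Dox+4μ8c and of 1.26 and 1.13 with Dox in experiments 1 and 2, against 0.90 and 0.56 and 1.21 and 1.06 for Nupr1.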

How the data were processed

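Total RNA of INS-1 (insulin 2 C96Y-GFP) cells was hybridized to Affymetrix 3′ IVT rat arrays. The authors used RMA (version not given in the sources used here), and the deposited log2 values are centred per probeset. In experiment 1 the middle of the 3 values was 0 for 100% of probesets, in experiment 2 for 0.84%. Of 25476 probesets, 17978 had 1 gene symbol, 378 had several, 7068 had none and 52 were controls. Values were averaged per symbol. The replicate number of the labels was taken as the experiment, as the methods describe independent experiments and the centring follows that number. Deviations from the group means correlated with r of 0.03 to 0.10 between groups, which the centring makes uninformative.

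All 12603 genes were fitted with limma 3.58.1 in R 4.3.3 (groups plus experiment, eBayes, two-sided, Benjamini-Hochberg over all genes of a contrast, threshold 0.05, 2 residual and 4.25 prior degrees of freedom), after the procedure had been tested on simulated data. The 1.5 fold line is that of the methods. Tables and plots used Python 3.11.15, pandas 2.3.3, numpy 2.4.6 and matplotlib 3.10.9. Promoters came from RefSeq (GRCr8). The members, the 6 gene lists, written from general knowledge, and the tests were chosen with earlier results of these data known. Named were all members and, from the other genes, the 3 largest passing changes of each list per contrast, and the 3 genes nearest to each member. Other genes are named as examples of a role, and were chosen after their values had been seen. Pycr1, Tnfrsf10b, Atf7 and Sst of the lists had no match. The number of arrays limits the precision. Alternatives were no experiment term, median-centred arrays, 1 probeset per gene, averaged linear folds, a robust prior, single probesets, and each array left out.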

Additional observations from a re-analysis of the deposited data

How the results depend on the processing

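No log2 change of an ISR factor against untreated turned its sign in any alternative. Without the experiment term (no replicate block) 1 of the 7 factors passed with Dox against untreated and 0 with Dox+4μ8c (7 at an unadjusted p under 0.05 each), and the genes called in all were 440, 0 (2083 unadjusted) and 143 for Dox against untreated, Dox+4μ8c against untreated and Dox+4μ8c against Dox, compared with 810, 290 and 225 with the term. With the probeset of largest SD for each gene they were 477, 76 and 0 (1264 unadjusted), with single probesets 90 for Dox+4μ8c against untreated and 0 against Dox (1722 unadjusted), and among the 4896 genes without ties, a set added after the ties had been seen, 1287, 691 and 408, where 1 factor (Nupr1) passed against Dox. With the probeset of largest SD, 5 factors passed for Dox+4μ8c against untreated (not Cebpb and Nupr1), and 5 of their 8 single probesets did. Why these counts moved was not tested. With 1 array left out, the factors called were 6 to 7, 2 to 7 and 0 to 1 in the 3 comparisons, and all genes called were 239 to 1759, 11 to 712 and 0 to 905 (the 0 without either Dox+4μ8c array, with 1432 and 595 unadjusted). In such fits the group with 1 array is assumed to vary like the others. Centring each array on its median, or a robust prior, changed no call of a factor, and averaging linear folds moved no value beyond the spread of the experiments. Signal over background cannot be given for centred values.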
